A study of Mus musculus with 4 samples.

Results

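Cadherins and non-clustered protocadherins are cell surface adhesion proteins, and the genes described here are the 34 of 23991 gene symbols in the deposited tables that are named Cdh or Pcdh followed by a number alone (a final x allowed). Of these, 22 are cadherins and 12 are protocadherins. Cdh5, the cadherin of endothelial cells, was left out by the same rule. RNA came from the amygdala of mice carrying an Npy-driven Cre allele and a lox-controlled tag allele (NpyCre/+;TRAPlox/lox), taken from both sides of the brain. Translating ribosome affinity purification (TRAP) pulls down tagged ribosomes with the RNA on them, here from cells in which Cre, expressed from the neuropeptide Y gene, had acted. Total RNA (input) and immunoprecipitated RNA (IP) were sequenced from the same genotype, with 2 libraries per group and RNA of 3 mice pooled in each. All groups share the genotype and tissue, and the sources used here do not give age or sex. No Cre-negative or mock precipitation was analysed here, and Cre marks a cell for good, so whether every tagged cell expressed Npy at sampling was not tested. The comparison of IP with input shows how the RNA of each adhesion gene was divided between tagged ribosomes and the whole tissue.

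Cadherins bind their own kind on the neighbouring cell through calcium-dependent extracellular repeats. Classical cadherins hold on to actin through catenins bound to their cytoplasmic tail, and at synapses they help to align the membranes and to match partner neurons. Type I and type II classical cadherins differ in the strand that each molecule swaps with its partner. Delta protocadherins are single-gene relatives that adhere more weakly, do not bind beta-catenin, and signal through other tail partners, among them the WAVE complex of actin regulators for several delta-2 members and protein phosphatase 1 for the delta-1 members. Different neuron types carry different sets of these genes.

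The swapped strand lies at the start of the mature protein, just after the cut that removes the propeptide, and its anchor is tryptophan. The lines below show what sets the cadherin classes apart, for type I by the members other than Cdh2, for type II by those that moved and the most abundant, and for Cdh13: the coding sequence of the 12 codons after the cut, 5′ to 3′, from GENCODE M21 transcripts (GRCm38). The cut was found by its Arg-X-(Lys or Arg)-Arg pattern, and capitals mark tryptophan codons among the first 5.
Cdh4: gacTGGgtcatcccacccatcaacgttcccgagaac
Cdh15: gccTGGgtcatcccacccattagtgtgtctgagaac
Cdh11: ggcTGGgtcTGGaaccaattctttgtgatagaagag
Cdh18: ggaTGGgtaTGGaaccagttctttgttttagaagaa
Cdh20: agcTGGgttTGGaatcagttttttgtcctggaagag
Cdh22: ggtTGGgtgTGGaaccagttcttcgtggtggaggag
Cdh13: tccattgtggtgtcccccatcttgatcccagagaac
The 3 type I members measured, Cdh2 among them, had 1 tryptophan codon, at position 2. All 10 measured type II members had 2, at positions 2 and 4. Cdh13 had 0.

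The delta-1 protocadherins are told apart by the docking motif for protein phosphatase 1 in the tail. The search covered GENCODE coding transcripts of the 11 measured protocadherins that begin with a start codon and hold whole codons. It found the motif in all 4 delta-1 genes, in some but not all of their transcripts, and in none of the other 7 genes. For Pcdh1 the motif was in 1 of 3 transcripts, a form of 359 codons. Capitals mark its 5 codons, shown because the motif defines the class.
Pcdh7: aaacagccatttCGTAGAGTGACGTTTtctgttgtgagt
Pcdh9: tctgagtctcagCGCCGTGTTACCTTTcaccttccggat
Pcdh11x: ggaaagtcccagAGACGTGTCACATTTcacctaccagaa
The deposited values sum all transcripts of a gene, so forms with and without the motif were not measured apart.

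Levels were deposited as FPKM, fragments per kilobase of transcript, scaled to the mapped fragments of the library, which allows levels of different genes to be compared. FPKM summed to 334759 and 335119 in the input libraries and to 423985 and 419349 in the IP libraries. If the deposited confidence limits span 2 SD of a read count, the libraries held between 13174335 and 16004403 reads, and the thinnest value of a tested member, Cdh24 in input replicate 1, rested on 58.9 reads. Npy, the Cre driver, was at 105.4 and 99.2 FPKM in the input pools and 1240 and 1167 in the IP pools. All 8 markers of GABAergic neurons were higher in IP, and their summed level went from 727 to 751 FPKM in input to 7004 to 7239 in IP. Of 6 glutamatergic markers 4 were lower and 2 did not pass, with sums of 360 and 373 FPKM in the input pools and 224 and 146 in the IP pools. The astrocyte sum was 3.07-fold lower in IP (5 of 6 lower), the oligodendrocyte sum 4.37-fold (6 of 6), the oligodendrocyte precursor sum 5.89-fold (6 of 6) and the microglial sum 15.2-fold (6 of 6). Markers of vessels and membranes were low in IP too: endothelial markers summed to 1.22 and 1.503 FPKM, mural markers to 4.04 and 5.17 (Kcnj8 at 0 in both) and meningeal fibroblast markers to 3.13 and 4.09. The choroid plexus and ependymal sum differed between pools, at 186 and 16.9 FPKM in the tissue pools, and 14.4 and 5.22 on tagged ribosomes. These are bulk samples, in which fewer cells of a type and less RNA per cell cannot be told apart, and the part of these markers in the results below was not tested.

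Of the 34 genes, 25 had an FPKM no lower than 1 in 2 or more libraries and were tested within a limma fit over all 12417 genes that did so. In IP against input 5 were higher, 7 were lower and 13 did not pass an adjusted p of 0.05. Over all genes tested 70.9% were called, 37.0% higher and 33.9% lower, against 12 of 25 members, or 48.0%. Both IP values lay above both input values for 8 members and below for 11, against 45.0% and 41.4% of all genes (86.4% in either direction). A log2 change of at least 1 was reached by 3 called members, Pcdh18 upward and Pcdh15 and Pcdh20 downward, against 11.3% of all genes (3.48% higher and 7.87% lower). The median change of the tested members was -0.050 on the log2(FPKM + 1) scale, and 0.025 over all genes. Pcdh18 passed the filter only through its IP values, and Pcdh15 and Cdh12 only through their input values, so these counts support no statement of their own. The p-values rest on the spread between 2 pools per group, with each gene's variance drawn toward a trend over all genes. The fit did not use the pairing of IP with input.

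**Figure D1:**
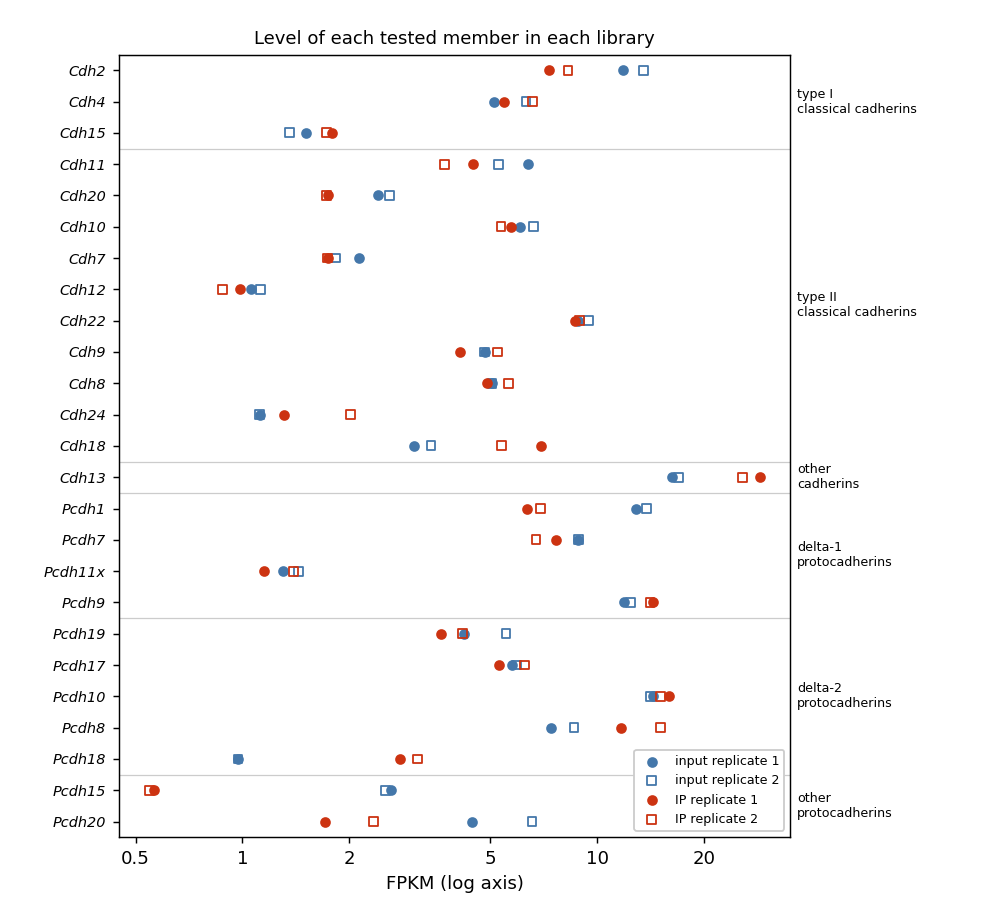
FPKM of the 25 tested genes in each of the 4 libraries on a log axis, grouped by structure, with blue for input and red for IP, filled circles for replicate 1 and open squares for replicate 2. Cdh13 stands highest in all libraries, Pcdh18, Cdh18, Cdh13 and Pcdh8 have both IP points to the right of both input points, and Pcdh15, Pcdh20, Pcdh1 and Cdh2 have both to the left.

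Summed over all 34 genes, the level was 152 and 163 FPKM in the input pools and 156 and 159 in the IP pools, so the family total overlapped between groups. As a share of all FPKM it was 0.0454% and 0.0486% in input and 0.0367% and 0.0380% in IP, libraries whose FPKM sum is higher. The make-up differed. The members called lower summed to 49.4 and 53.1 FPKM in the input pools and 29.8 and 30.3 in the IP pools, and those called higher to 39.6 and 42.3 against 64.5 and 63.4. These sums follow from the calls and are a description.

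**Figure D2:**
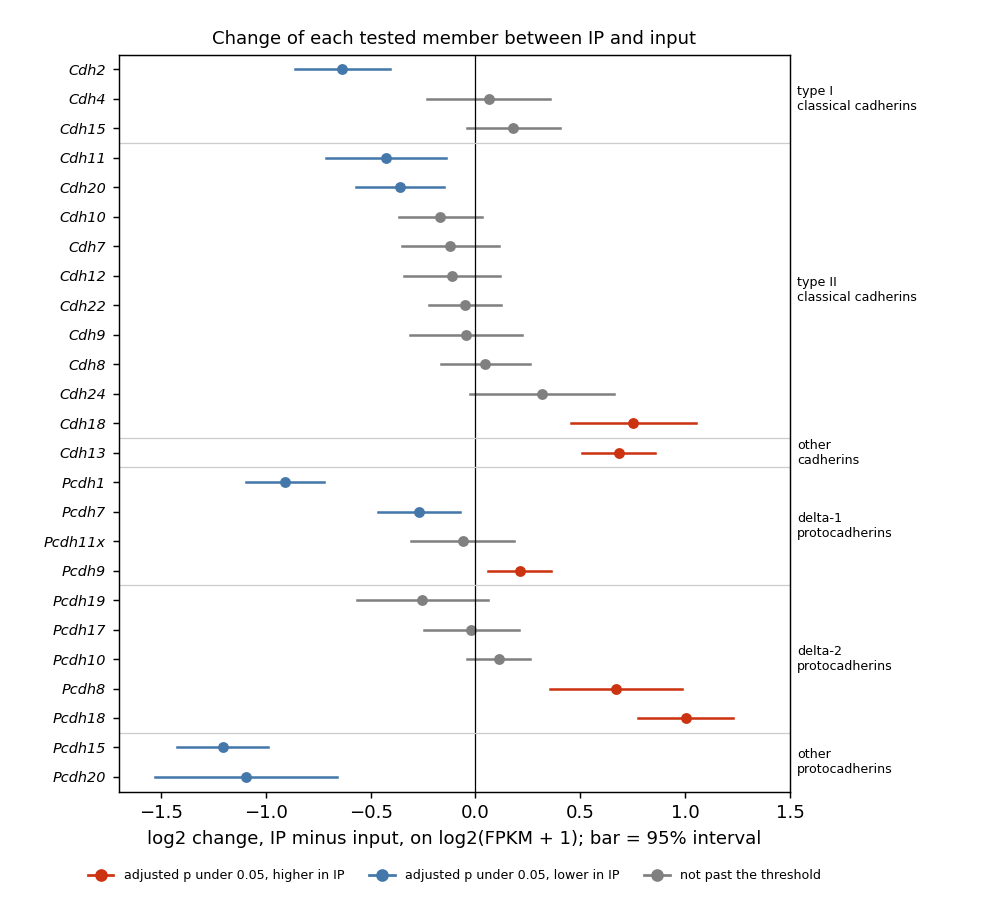
Log2 change between IP and input of each tested gene on the log2(FPKM + 1) scale (points) with its 95% interval from limma (bars), grouped by structure. Red marks genes higher in IP, blue genes lower in IP, and grey the 13 that did not pass; the largest rise is Pcdh18 at 1.00 and the largest fall Pcdh15 at -1.20.

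Among the type I classical cadherins, Cdh2 fell and the other measured members did not pass. Cdh2 encodes N-cadherin, the main classical cadherin of brain tissue, found at synaptic junctions and also in glia. It lies on chromosome 18 from 16588877 to 16809049 (mm10, minus strand, 16 exons). It was at 11.8 and 13.5 FPKM in the input pools and 7.32 and 8.28 in the IP pools. Both IP values were below both input values, and the deposited confidence limits of the groups lay apart. The mean fell 1.62-fold, from 12.7 ± 1.20 to 7.80 ± 0.685 FPKM (SD, n = 2), a log2 change of -0.63 (SE 0.09; limma, adjusted p = 0.00123). Cdh4, R-cadherin, was at 5.13 and 6.30 FPKM in the tissue pools, and 5.45 and 6.57 on tagged ribosomes. The groups overlapped, and the 95% interval of its change ran from -0.23 to 0.36. Cdh15, M-cadherin, best known from muscle and cerebellar granule cells, was at 1.51 and 1.36 FPKM in the input pools and 1.79 and 1.72 in the IP pools (interval -0.04 to 0.40), and it passed with quantile normalization (0.62; limma, adjusted p = 0.00180). Cdh2 was thus the sole type I member called of 3 tested, where 70.9% of all genes were called and 33.9% were lower. It fell by 0.46 to 1.00 on the log2 scale under every alternative setting.

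Type II classical cadherins are expressed in differing combinations by groups of neurons. Of 10 measured, 1 rose, 2 fell and 7 did not pass, where 37.0% of all genes were higher and 33.9% lower, and their median change was -0.08. Their summed level was 42.3 and 43.1 FPKM in the input pools and 41.0 and 40.9 in the IP pools.

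Cdh18, a cadherin found mainly in the central nervous system, was the member that rose. The gene spans chromosome 15 from 23036463 to 23474418 (mm10, plus strand, 12 exons). It was at 3.05 and 3.40 FPKM in the tissue pools, and 6.93 and 5.37 on tagged ribosomes. The groups were well apart, and the 2 IP libraries differed from each other more than the input libraries did. The mean rose 1.91-fold, from 3.23 ± 0.2499 to 6.15 ± 1.10 FPKM (SD, n = 2), a log2 change of 0.75 (SE 0.12; limma, adjusted p = 0.00188). By change it stood above 91.5% of all genes tested. In the order of mean levels over all 34 genes it was 17 in input and 9 in IP.

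Cdh11, OB-cadherin, also abundant in mesenchymal cells, was at 6.39 and 5.27 FPKM in the input pools and 4.46 and 3.71 in the IP pools, with no overlap. Its change of -0.42 passed (limma, adjusted p = 0.0174), but not in every setting. A fit that leaves out a library has 1 library in a group, which is assumed to vary like the other group, so a lost call there need not mean a smaller change. Leaving out input replicate 1 gave -0.31 (adjusted p = 0.1003), leaving out IP replicate 2 gave -0.32 (adjusted p = 0.0639), and testing all genes with no filter left the change at -0.42 (adjusted p = 0.0526). Quantile normalization gave a change of -0.20 (adjusted p = 0.168), and correcting for length also gave -0.20 (adjusted p = 0.174). Cdh20 was at 2.41 and 2.61 FPKM in the tissue pools, and 1.75 and 1.72 on tagged ribosomes, a change of -0.36 (limma, adjusted p = 0.0102). Leaving out input replicate 2 ended that call at a change of -0.32 (adjusted p = 0.0811), and with quantile normalization the value was 0.030 (adjusted p = 0.787). Both lay below the tissue level as the files stand, by less than the fall of Cdh2.

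The remaining 7 type II genes did not pass. Cdh22 was the most abundant of the class, at 8.86 and 9.46 FPKM in the input pools and 8.68 and 8.95 in the IP pools, with an interval of its change from -0.22 to 0.12. Cdh8 was at 5.05 and 5.05 FPKM in the tissue pools, and 4.90 and 5.63 on tagged ribosomes (interval -0.17 to 0.26). Cdh9, known for the adhesion of hippocampal mossy fibre synapses, was at 4.83 and 4.83 FPKM in the input pools and 4.12 and 5.24 in the IP pools (interval -0.31 to 0.22). In each of these 3 genes the groups overlapped, which does not show that levels were equal. Their calls depended on scaling: after rescaling Cdh22 was at -0.38 (limma, adjusted p = 0.00446) and Cdh9 at -0.37 (adjusted p = 0.0394). With quantile normalization Cdh8 was at 0.27 (limma, adjusted p = 0.0354). Rescaling also moved the median change of all genes to -0.29. Against that median Cdh22 lay at -0.087 and Cdh9 at -0.073, beside -0.075 and -0.070 against the median as reported. Cdh10 was at 6.06 and 6.62 FPKM in the tissue pools, and 5.72 and 5.36 on tagged ribosomes (change -0.17). Cdh7 and Cdh12 were low, between 1.74 and 2.13 and between 0.880 and 1.13 FPKM in all libraries. After rescaling Cdh10 was at -0.50 (limma, adjusted p = 0.00268), Cdh7 at -0.44 (adjusted p = 0.0184) and Cdh12 at -0.41 (adjusted p = 0.0327). Cdh24 was at 1.12 and 1.12 FPKM in the input pools and 1.31 and 2.02 in the IP pools. Its change of 0.32 did not pass (limma, adjusted p = 0.0869) but did in the fit with a replicate block (adjusted p = 0.0481), which follows the pairing of each IP with its input, without IP replicate 1 (0.51, adjusted p = 0.00932) and with quantile normalization (0.82, adjusted p = 0.00266).

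Cdh13 encodes T-cadherin, which has no transmembrane or cytoplasmic part, is held in the membrane by a lipid anchor, and binds adiponectin. Its arm lacks the tryptophan codons of the other classes, as the sequence above shows. Its place is chromosome 8 from 118283755 to 119323448 (mm10, plus strand, 14 exons). It was at 16.2 and 17.0 FPKM in the tissue pools, and 28.8 and 25.8 on tagged ribosomes, and it was the highest of all 34 genes in both groups. The values did not overlap, and neither did the deposited confidence limits. The mean rose 1.64-fold, from 16.6 ± 0.517 to 27.3 ± 2.13 FPKM (SD, n = 2), a log2 change of 0.68 (SE 0.07; limma, adjusted p = 0.000304). The lowest read number implied for a library was 723. The rise was 0.37 after rescaling each library to the same sum, the smallest value over the alternatives, and passed there too.

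The delta-1 protocadherins share the docking motif printed above. Of 4 measured, 1 rose, 2 fell and 1 did not pass, against 37.0% of all genes higher and 33.9% lower. Pcdh1, described mainly in airway epithelium, showed the largest difference. It lies on chromosome 18 from 38196694 to 38209762 (mm10, minus strand). It was at 12.9 and 13.8 FPKM in the input pools and 6.35 and 6.94 in the IP pools, with both IP values well below both input values. The mean fell 2.01-fold, from 13.3 ± 0.653 to 6.64 ± 0.417 FPKM (SD, n = 2), a log2 change of -0.91 (SE 0.08; limma, adjusted p = 0.000134). It was the third highest of the 34 genes in input.

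Pcdh7 was at 8.85 and 8.85 FPKM in the tissue pools, and 7.64 and 6.73 on tagged ribosomes, a change of -0.27 (limma, adjusted p = 0.0235). Leaving out either input library ended the call with the change still at -0.27 (adjusted p = 0.0855 and 0.0866), as did leaving out IP replicate 2 (-0.19, adjusted p = 0.104). Quantile normalization gave -0.18 (adjusted p = 0.0848), and the length-corrected value turned to 0.15 (adjusted p = 0.1298). Pcdh9 went the other way, at 11.9 and 12.4 FPKM in the input pools and 14.4 and 14.1 in the IP pools, a change of 0.21 (limma, adjusted p = 0.0209). Leaving out the first or the second input library ended that call at changes of 0.19 and 0.24 (adjusted p = 0.1003 and 0.0548), as did leaving out IP replicate 1 (0.20, adjusted p = 0.0715) and quantile normalization (0.16, adjusted p = 0.0630), and after rescaling the value was -0.11 (adjusted p = 0.159). Pcdh11x, an X-linked gene, was at 1.30 and 1.44 FPKM in the tissue pools, and 1.15 and 1.39 on tagged ribosomes, and the groups overlapped. After rescaling, the median change of all genes was -0.29, so that Pcdh9 still lay 0.18 above that median.

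Among the delta-2 protocadherins 2 of 5 rose, 0 fell and 3 did not pass, so the share that rose was near the 37.0% of all genes called higher. The class sum was 32.7 and 35.2 FPKM in the input pools and 39.3 and 43.7 in the IP pools.

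Pcdh18, known to bind the reelin pathway adaptor Dab1, had the largest rise of all 25 tested genes. The gene is on chromosome 3 from 49743296 to 49757316 (mm10, minus strand, 4 exons, with 73.1% of the coding sequence in the longest coding exon). It was at 0.9696 and 0.972 FPKM in the input pools and 2.78 and 3.12 in the IP pools. The input libraries were nearly alike and both IP libraries were far above them. The mean rose 3.04-fold, from 0.971 ± 0.00188 to 2.95 ± 0.242 FPKM (SD, n = 2), a log2 change of 1.00 (SE 0.09; limma, adjusted p = 0.000187). The log2(FPKM + 1) scale understates the change of so low a gene, and with a pseudocount of 0.1 it was 1.51. By change it stood above 96.5% of all genes tested. Because Pcdh18 passed the filter only through its IP values, its p-value and its place among the tested genes are a description. The read numbers implied by the limits were 104 and 108 in input and 335 and 315 in IP. It stood at 25 in the order of mean levels in input and at 17 in IP.

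Pcdh8, also called arcadlin, is induced by neuronal activity and drives N-cadherin into the cell. It lies on chromosome 14 from 79766772 to 79771312 (mm10, minus strand, 3 exons). It was at 7.39 and 8.61 FPKM in the tissue pools, and 11.7 and 15.1 on tagged ribosomes. The groups did not overlap, although the IP libraries differed from each other more than the input libraries did. The mean rose 1.67-fold, from 8.003 ± 0.862 to 13.4 ± 2.41 FPKM (SD, n = 2), a log2 change of 0.67 (SE 0.13; limma, adjusted p = 0.00399). After rescaling it was 0.38 (adjusted p = 0.0490), just past the threshold. Exons of the antisense gene Gm9748 overlap Pcdh8 in GENCODE, and since the sources used here do not say whether counting used strand, their reads cannot be told apart. The same holds for Pcdh7, Pcdh10, Pcdh19, Cdh8 and Cdh9, which overlap annotated exons on the opposite strand. Cdh12 overlaps exons of Gm49685 on its own strand, where counting by strand would not separate the reads either.

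The other delta-2 genes did not pass. Pcdh10, which recruits the WAVE complex and takes part in synapse elimination, was the second highest of the 34 genes in both groups, at 14.4 and 14.2 FPKM in the input pools and 15.9 and 15.1 in the IP pools (change 0.11, interval -0.04 to 0.26). Pcdh17, found at synapses of the cortex and basal ganglia, was at 5.76 and 5.93 FPKM in the tissue pools, and 5.29 and 6.24 on tagged ribosomes (interval -0.24 to 0.21). Pcdh19, the X-linked gene whose loss causes an epilepsy of girls, was at 4.21 and 5.54 FPKM in the input pools and 3.63 and 4.18 in the IP pools. Its change of -0.25 did not pass (limma, adjusted p = 0.122) but did with the replicate block (adjusted p = 0.0327) and after rescaling (-0.60, adjusted p = 0.0117). Without input replicate 1 the change of Pcdh19 was -0.42. Both IP values of Pcdh10 lay above and both of Pcdh19 below the input values, while those of Pcdh17 fell on either side.

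The remaining 2 measured protocadherins, which belong to neither delta class here, had the largest falls of the 25 tested genes on the log2(FPKM + 1) scale. Pcdh15 encodes a protein of the tip link that opens the transduction channel of hair cells. The files place it on chromosome 10 from 73821867 to 74649732 (mm10, plus strand), and its longest coding form has 35 exons. It was at 2.63 and 2.53 FPKM in the tissue pools, and 0.563 and 0.546 on tagged ribosomes, so both pairs of replicates were tight and far apart. The mean fell 4.66-fold, from 2.58 ± 0.0708 to 0.554 ± 0.0120 FPKM (SD, n = 2), a log2 change of -1.20 (SE 0.09; limma, adjusted p = 8.45e-05). With a pseudocount of 0.1 the change was -2.04. Because Pcdh15 passed the filter only through its input values, its p-value and its place among the falls are a description. The limits imply 428 and 417 reads in input and 101 and 78.7 in IP. Beside it, the oligodendrocyte precursor markers were 5.89-fold lower by their sum, with Pdgfra at 3.80 and 4.45 FPKM in the input pools and 0.397 and 0.553 in the IP pools, and their part in the result was not tested.

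Pcdh20 lies on chromosome 14 from 88464747 to 88471396 (mm10, minus strand, 3 exons, with 95.4% of the coding sequence in the longest coding exon). It was at 4.45 and 6.55 FPKM in the tissue pools, and 1.71 and 2.34 on tagged ribosomes. The replicates differed from each other in both groups, with replicate 2 the higher of each pair, yet the groups did not overlap. The mean fell 2.72-fold, from 5.50 ± 1.49 to 2.03 ± 0.442 FPKM (SD, n = 2), a log2 change of -1.09 (SE 0.18; limma, adjusted p = 0.00191). Its interval, from -1.52 to -0.66, was the widest of the 25 genes.

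The other 9 genes were below the filter, and they get no test. In 6 of them both IP values lay below both input values, beside 41.4% of all genes tested. The share among all genes below the filter was not taken. For Cdh3 and Cdh26 the lower confidence limits were 0 in both IP libraries, so the count is a description. Cdh19, known from Schwann cells and their precursors, was at 0.813 and 0.864 FPKM in the input pools and 0.071 and 0.137 in the IP pools, or 8.04-fold lower by the means, resting on 49.3 and 53.9 implied reads in input and 5 and 8 in IP. Cdh6 was at 0.573 and 0.922 FPKM in the tissue pools, and 0.352 and 0.161 on tagged ribosomes. Cdh1, E-cadherin of epithelia, was at 0.187 and 0.520 FPKM in the input pools and 0.126 and 0.035 in the IP pools. Cdh23, the partner of Pcdh15 in the tip link, was at 0.079 and 0.089 FPKM in the tissue pools, and 0.026 and 0.036 on tagged ribosomes, below its partner in all libraries. Cdh3, P-cadherin, was at no more than 0.082 FPKM in any library and Pcdh12, a protocadherin of endothelial cells, at no more than 0.050. Cdh26 was listed at 0 in both IP libraries and at 0.017 and 0.033 in input. Cdh17, of liver and intestine, reached 0.015 FPKM at most, and Cdh16, of kidney, was listed at 0 in all 4 libraries. The left-out Cdh5 was at 0.429 and 0.686 FPKM in the input pools and 0.065 and 0.026 in the IP pools.

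Many members sit near each other in the genome. Distances here are between GENCODE gene spans, which can be longer than those of the files given above. Chromosome 15 carries 5 type II genes in the order Cdh6, Cdh9, Cdh10, Cdh12 and Cdh18, with gaps of 0.959 to 3.56 Mb. Of the 4 tested there Cdh18, at the end of this row, rose, and Cdh9, Cdh10 and Cdh12 did not pass. Their calls depended on scaling. Cdh12 was at 0.43 with quantile normalization (limma, adjusted p = 0.00962), while after rescaling Cdh9, Cdh10 and Cdh12 were called lower, at -0.37, -0.50 and -0.41. The median change of all genes was -0.29 after rescaling. Chromosome 14 carries Pcdh8, Pcdh17, Pcdh20 and Pcdh9 in this order, 3.93 to 4.67 Mb apart, and their changes were 0.67, -0.02, -1.09 and 0.21. On chromosome 3 Pcdh10 and Pcdh18 lie 4.31 Mb apart, with changes of 0.11 and 1.00. Whether these neighbours differ from each other was not tested.

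**Figure D3:**
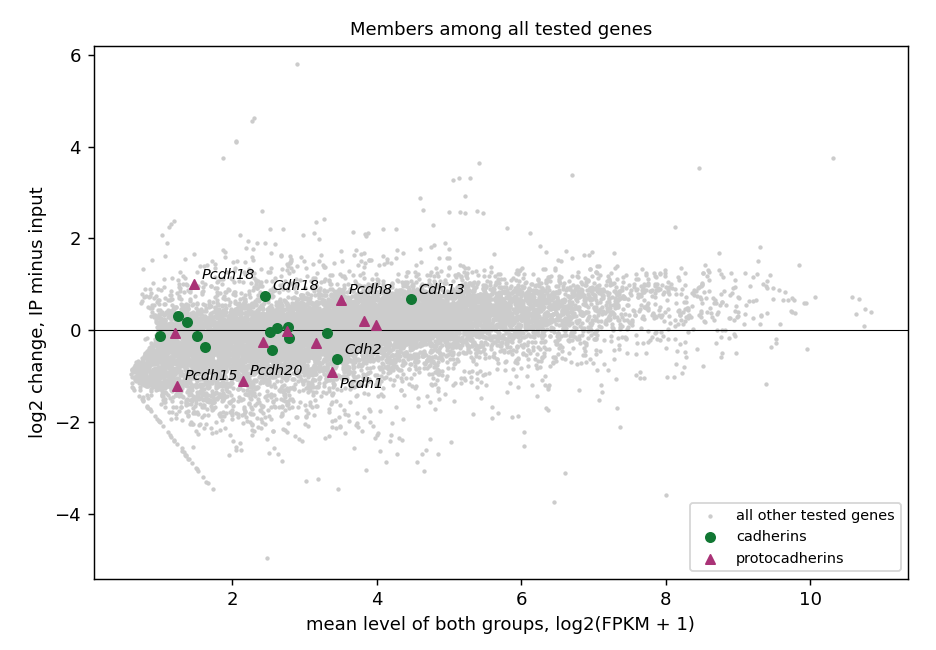
Log2 change between IP and input against the mean level of both groups for all 12417 tested genes (grey), with the 14 tested cadherins as green circles and the 11 protocadherins as purple triangles. The 8 named members lie outside the band of the others: the smallest of their changes are -0.63 for Cdh2 and 0.67 for Pcdh8, and the other members lie between -0.42 and 0.32.

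Members had a median transcript length of 5168 bases, from 2744 to 11451, against 3188 over all genes tested. The calls depended on a correction for transcript length: with the changes corrected along a curve through all genes, 9 members were higher and 5 were lower. Why they moved was not tested. Of all 12343 genes in that fit, 4859 were higher and 3464 lower. Among the members higher there were Pcdh10 at 0.50 (limma, adjusted p = 0.000625) and Pcdh17 at 0.52 (limma, adjusted p = 0.00396). After rescaling both were called lower, Pcdh10 at -0.22 (limma, adjusted p = 0.0198) and Pcdh17 at -0.34 (adjusted p = 0.0253). The median change of all genes was -0.29 in that setting. Pcdh18, Cdh18, Cdh13 and Pcdh8 remained higher and Pcdh15, Pcdh20, Pcdh1 and Cdh2 remained lower, with an adjusted p under 0.05, in all alternative settings that gave them a value. When a log2 change of at least 1 was also required, Pcdh18, Pcdh15 and Pcdh20 stayed called and the other 5 did not. Pcdh18 passed the filter only through its IP values and Pcdh15 only through its input values. Without either library of that group they had no value, so their calls here are a description.

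**Figure D4:**
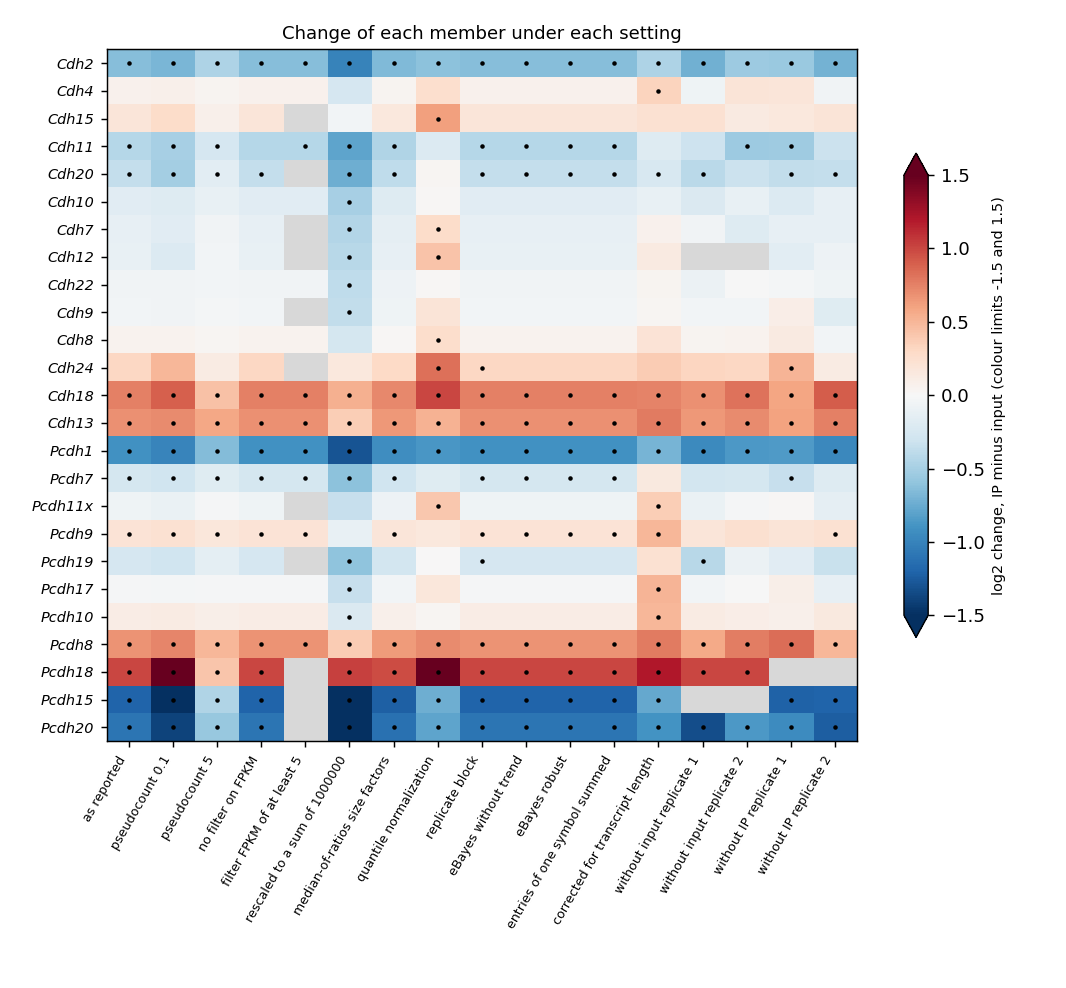
Log2 change of each tested gene (rows) under the settings as reported and each alternative (columns), in red where higher and blue where lower in IP, with a dot where the adjusted p was under 0.05 and grey where the gene did not pass that setting's filter. The rows of Cdh2, Cdh18, Cdh13, Pcdh1, Pcdh8, Pcdh18, Pcdh15 and Pcdh20 keep their colour and dot in every column with a value, while pale rows such as Cdh7 and Pcdh17 change colour.

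Catenins link classical cadherins to the cell interior. Of 12 genes of catenins and their partners 11 were tested, of which 4 were higher, 5 were lower and 2 did not pass, with a median change of -0.28. These counts are near the shares of all genes, 37.0% higher and 33.9% lower. Ctnnal1, the alpha-catenin-like gene, fell the most of these, from 4.88 and 3.99 FPKM to 0.981 and 1.18 (log2 change -1.38; limma, adjusted p = 0.000124). Ctnnbip1, an inhibitor of beta-catenin's partnership with TCF factors, rose the most, from 12.6 and 14.0 to 21.4 and 20.9 FPKM (0.63; limma, adjusted p = 0.000361). Chosen after their values were seen, Ctnnb1 (beta-catenin) fell from 130.2 and 132.7 to 107.6 and 104.0 FPKM (-0.31; limma, adjusted p = 0.00135), and Ctnna2, the alpha-catenin of neurons, rose from 30.5 and 31.9 to 40.6 and 39.4 (0.35; limma, adjusted p = 0.00150). The rise of Ctnna2 did not pass under every setting, with values down to 0.017 (adjusted p up to 0.789). After rescaling, 1 gene of this list was higher.

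Of 13 genes of the WAVE complex and other links to actin, all tested, 2 were higher, 10 were lower and 1 did not pass, with a median of -0.41, beside 37.0% of all genes higher and 33.9% lower. Wasf3, a WAVE subunit, rose the most, from 23.6 and 24.9 to 37.0 and 38.2 FPKM (0.61; limma, adjusted p = 0.000183). Its relative Wasf2 fell the most, from 2.99 and 3.64 to 0.681 and 1.006 FPKM (-1.23; limma, adjusted p = 0.0003). Both kept an adjusted p under 0.05 in all alternatives that gave a value, but Wasf3 did not reach a log2 change of 1. The list contains subunits that are also used in other cell types, such as Nckap1l of blood-derived cells, named after its values were seen, at 1.57 and 1.11 FPKM in the tissue pools, and 0.288 and 0.162 on tagged ribosomes.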

How the data were processed

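Amygdala RNA of 4 libraries (2 IP and 2 input, 3 mice pooled in each, 200 ng RNA, 100 bp single-end reads) was aligned with TopHat to mm10 and summarised with Cufflinks, per the series' design text and the submitters' processing notes. The authors deposited FPKM, and per the file headers each has limits and a status; no scaling between libraries is recorded. Groups and replicate numbers come from the titles; the source description of IP replicate 2 says replicate 1. The design text gives each IP a corresponding input, so the numbers pair the samples, and deviations from the group means correlated at 0.163 across genes.

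Of 24490 entries per library, 8 with a failed status and 1279 with small RNA names were left out, and the entry with the highest mean was kept per symbol. The 12417 genes with an FPKM no lower than 1 in 2 or more libraries were tested as log2(FPKM + 1) with lmFit and eBayes with trend in limma 3.58.1 (R 4.3.3), two-sided and without a block, with Benjamini-Hochberg adjustment over all of them and a threshold of 0.05. Folds are ratios of group means of FPKM. The test was also run on simulated data. Tables were made with Python 3.11.15, pandas 2.3.3 and numpy 2.4.6. Coordinates are those of the files, written 1-based, and exons, lengths and distances between genes are GENCODE M21. Lengths were found for 99.4% of the genes tested.

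Alternatives covered the pseudocount, the filter, scaling, the block, the variance model, summed entries, transcript length, a 2-fold criterion (log2 change of at least 1) and each library left out. Every member past the filter is given, with full statistics for those of largest change; the members, their grouping and the lists of partners and markers were chosen with earlier results of these data known.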

Additional observations from a re-analysis of the deposited data

How the results depend on the processing

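Pcdh18, Cdh18, Cdh13, Pcdh8, Pcdh15, Pcdh20, Pcdh1 and Cdh2 kept direction and an adjusted p under 0.05 under all alternatives that gave a value, and of them Pcdh18, Pcdh15 and Pcdh20 also had a log2 change of at least 1. Without either input library Cdh12 and Pcdh15 fell below the filter, as did Pcdh18 without either IP library. For Pcdh15 and Pcdh18 the kept calls are therefore a description. The causes of the changes below were not tested. As reported, 5 members were higher and 7 lower. With a filter of FPKM 5, which tests 14 members, 4 were lower, as were 6 of 9 WAVE and actin genes tested and 2437 of all 9011 genes tested. Rescaling to equal sums gave 15 members lower, 1 catenin gene higher, and 2227 genes higher and 6685 lower. Quantile normalization gave 10 members higher and 4 lower, 2 catenin genes higher and 1 WAVE gene higher, beside 4378 of all genes higher and 3753 lower. Length correction gave 9 members higher, beside 4859 of all 12343 genes in that fit. With a log2 change of at least 1 also required, 1 member was higher and 2 were lower, 0 and 1 catenin genes, 0 and 2 WAVE genes, and 432 and 977 of all genes. The fits with a library left out tested 11609 to 12294 genes. Leaving out each library gave 4 members higher and 4 to 7 lower, 3 to 4 catenin genes higher and 4 to 6 lower, 2 WAVE genes higher and 8 to 11 lower, and 3922 to 4212 of all genes higher and 2757 to 4082 lower.

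The direction turned, relative to the values as reported, in the following cases. After rescaling, Pcdh10 was at -0.22, Pcdh9 at -0.11, Cdh4 at -0.25, Cdh8 at -0.26 and Cdh15 at -0.037. The median change of all genes was -0.29 there, and all of these lay above it. The distances, in the same order, were 0.077, 0.18, 0.043, 0.028 and 0.26. With quantile normalization, Cdh22 was at 0.016, Cdh10 at 0.016, Pcdh17 at 0.17, Cdh9 at 0.20, Pcdh19 at 0.0011, Cdh20 at 0.030, Cdh7 at 0.28, Pcdh11x at 0.40 and Cdh12 at 0.43. With length correction, Cdh22 was at 0.036, Pcdh7 at 0.15, Pcdh17 at 0.52, Cdh9 at 0.026, Pcdh19 at 0.23, Cdh7 at 0.061, Pcdh11x at 0.37 and Cdh12 at 0.14. Leaving out each library, Cdh4 ranged from -0.063 (without input replicate 1; also below 0 without IP replicate 2) to 0.19, Cdh8 from -0.037 (without IP replicate 2) to 0.13, Pcdh17 from -0.12 to 0.082, Cdh9 from -0.19 to 0.098 and Pcdh11x from -0.14 to 0.016, these 3 turning without IP replicate 1. With the replicate block, 6 members were higher and 8 lower, and 4746 and 4370 of all genes; it added Cdh24 and Pcdh19 and changed no other member's call. With 2 libraries per group and no counts deposited, depth is known only through the confidence limits.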
